A study of Mus musculus with 4 samples.

Results

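The BCL2 family comprises the proteins that decide whether the outer mitochondrial membrane is opened during apoptosis. Guardian members such as BCL2, BCL-XL and MCL1 hold the effectors BAX and BAK inactive, and BH3-only members such as BIM, BID and PUMA relieve that hold or activate the effectors, after which cytochrome c leaves the mitochondrion and caspases are switched on. In the brain, neurons are known to rely on BCL-XL, MCL1 and BCL-W for survival, and BCL2A1 is a guardian of white blood cells that is induced when they are activated. The 10 genes described here were chosen by name out of the 33981 genes of the deposited tables. They were the guardians *Bcl2*, *Bcl2l1* (BCL-XL), *Bcl2l2* (BCL-W), *Mcl1* and *Bcl2a1b* (1 of the mouse copies of BCL2A1), the effectors *Bax* and *Bak1*, and the BH3-only genes *Bcl2l11* (BIM), *Bid* and *Bbc3* (PUMA). All 10 were listed, and all 10 had the position that GENCODE M21 gives them on GRCm38.

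RNA was taken from brain slices, cut coronally through the prefrontal cortex, of male C57BL/6J mice aged 3 to 5 months. Normotensive (NT) mice received saline, the vehicle, from an osmotic pump, and hypertensive (HT) mice received angiotensin II (a daily dose of 0.28 mg per kg body weight) over the 28 days of the experiment. On day 7 each mouse had either sham surgery or a photothrombotic stroke, in which light clots the vessels of an exposed patch of prefrontal cortex after injection of Rose Bengal, and brains were collected on day 28. Each of the 4 combinations (NT + Sham and HT + Sham, NT + Stroke and HT + Stroke) had 6 poly(A) RNA libraries. GEO lists 1 sample per group and the tables number 6 libraries in each, so every library was taken as 1 mouse, and *P*-values measure the spread between these libraries. The section holds the infarct, its surround and tissue outside it. In such bulk tissue fewer cells of a type and less RNA per cell cannot be told apart. Levels are given as CPM (read counts scaled to a common library size by the TMM method) for comparisons between mice, and as FPKM, which the authors computed per gene length, for comparisons between genes. A gene was called changed where edgeR's two-sided quasi-likelihood test gave an adjusted *P* under 0.05 (Benjamini-Hochberg over all genes tested).

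Libraries held 15922919 to 24865998 counts in all (median 18497216). Neuronal markers, checked for the labelled tissue, were present in every library, and the 10 genes summed to 6810 to 10200 CPM in the 24 libraries. Cell type markers moved with stroke. In the stroke main effect, which averages the stroke effect over NT and HT mice, 9 of 10 microglial markers, 8 of 10 macrophage and monocyte markers, 4 of 5 tested neutrophil markers, 6 of 6 tested lymphocyte markers, 5 of 10 astrocyte markers, 7 of 10 oligodendrocyte markers, 2 of 10 endothelial markers and 7 of 10 fibroblast markers rose, while 5 of 10 neuronal markers fell and 1 rose. In this contrast 25.8% of all genes tested were called. Apart from *Csf3r* and *Cd4*, the neutrophil and lymphocyte markers tested had at most 18 counts per NT + Sham library. They passed the filter on low counts largely through stroke libraries, so the rise in these 2 lists was partly set by the filter. The macrophage and monocyte list shares this limit in part. Of its 10 markers, 6 were tested in HT + Sham vs NT + Sham, which holds no stroke library. *Plac8* had 0 to 4 counts per NT + Sham library, *Ly6c2* 2 to 4, *Ms4a7* 2 to 15 and *Ccr2* 7 to 10. Markers of neighbouring brain regions also differed between sections, with 9 of 10 striatal markers and 1 of 9 olfactory bulb markers higher in the stroke main effect, and 0 of 5 tested red blood cell genes changed. In NT + Stroke vs NT + Sham 5 of 9 olfactory bulb markers were higher, with a median log2 fold change of 1.19. In that pair 0 of 10 striatal markers were called, with a median of 0.71. The summed striatal markers were 424 to 1800 CPM in NT + Sham, 513 to 2360 in NT + Stroke, 371 to 1220 in HT + Sham and 932 to 2910 in HT + Stroke. Library 6 of HT + Sham stood apart from its group, with a macrophage marker sum of 186 CPM where the other 5 libraries had 23.2 to 29.9. Libraries 1 and 6 of HT + Stroke had low sums, of 36.7 and 44.5 CPM, where the other 4 had 161 to 749.

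The members covered a wide range of levels per length. *Bax* (mean 36.1 FPKM over 24 libraries, 28.3 to 51.1) and *Bcl2l1* (33.9 FPKM, 28.3 to 40.8) were the most abundant, followed by *Mcl1* (21.7 FPKM) and *Bcl2l2* (21.5 FPKM). *Bbc3* and *Bak1* had 8.66 and 8.09 FPKM, *Bid* had 3.06 FPKM, and *Bcl2a1b*, *Bcl2* and *Bcl2l11* had 1.59, 1.52 and 0.666 FPKM. Neighbours in this order did not always differ beyond their spread. *Bax* exceeded *Bcl2l1* in 14 of 24 libraries, *Mcl1* exceeded *Bcl2l2* in 13 and *Bbc3* exceeded *Bak1* in 17, whereas *Bcl2l1* exceeded *Mcl1*, *Bcl2l2* exceeded *Bbc3*, *Bak1* exceeded *Bid*, and *Bcl2* exceeded *Bcl2l11* in all 24. *Bcl2a1b* had the widest range, 0.131 to 5.69 FPKM, and was above *Bcl2* in 8 libraries. The gene-level values do not separate isoforms, such as the long and short forms of *Bcl2l1* and *Mcl1*, whose proteins act in opposite ways.

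**Figure D1:**
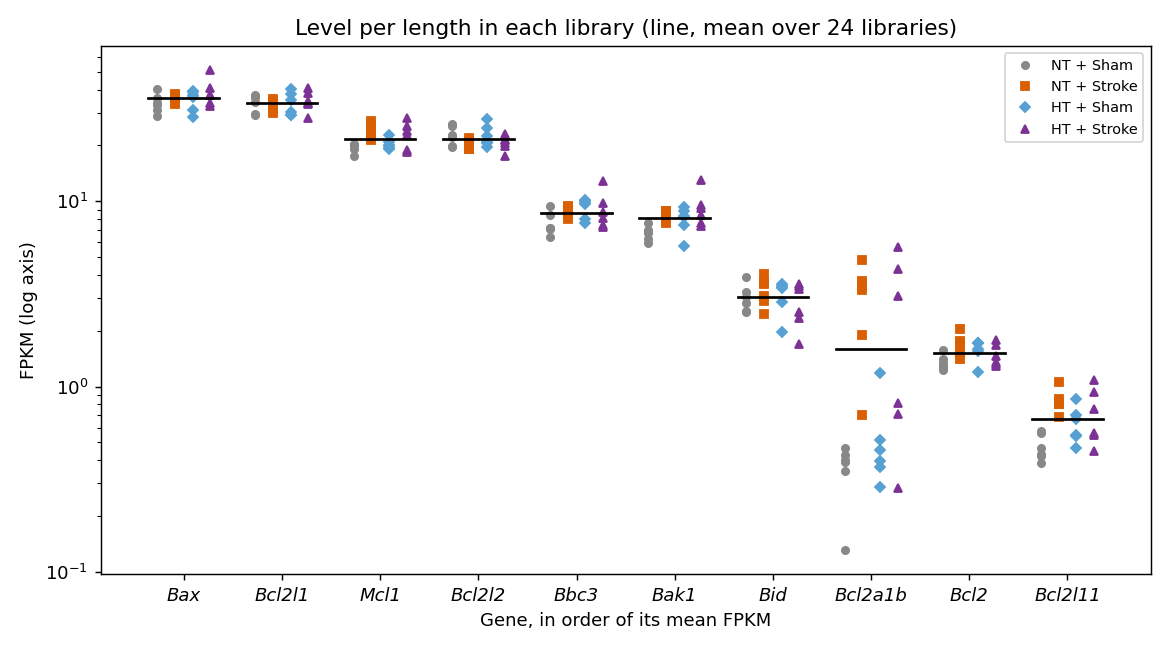
FPKM on a log axis for each of the 10 genes in order of their mean, with 1 point per library in 4 groups and a line at the mean over 24 libraries. *Bax* and *Bcl2l1* lie above 28 FPKM in every library, and the points of *Bcl2a1b* span 0.131 to 5.69.

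The first question was which members differed after stroke in mice with normal blood pressure. In NT + Stroke vs NT + Sham, *Bcl2a1b*, *Bcl2l11*, *Mcl1* and *Bak1* rose and *Bcl2l2* fell, so that 5 of 10 members were called where 25.9% of the 16835 genes tested were called (14.4% higher and 11.5% lower). The changed genes thus included guardians in each direction, 1 effector and 1 BH3-only gene. The median log2 fold change was 0.21 over the 10 members and −0.01 over all genes tested. The libraries of the groups did not overlap for 2 members, *Bcl2a1b* and *Bcl2l11*, where 14.3% of all genes tested did not overlap (7.47% with the stroke libraries higher).

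**Figure D2:**
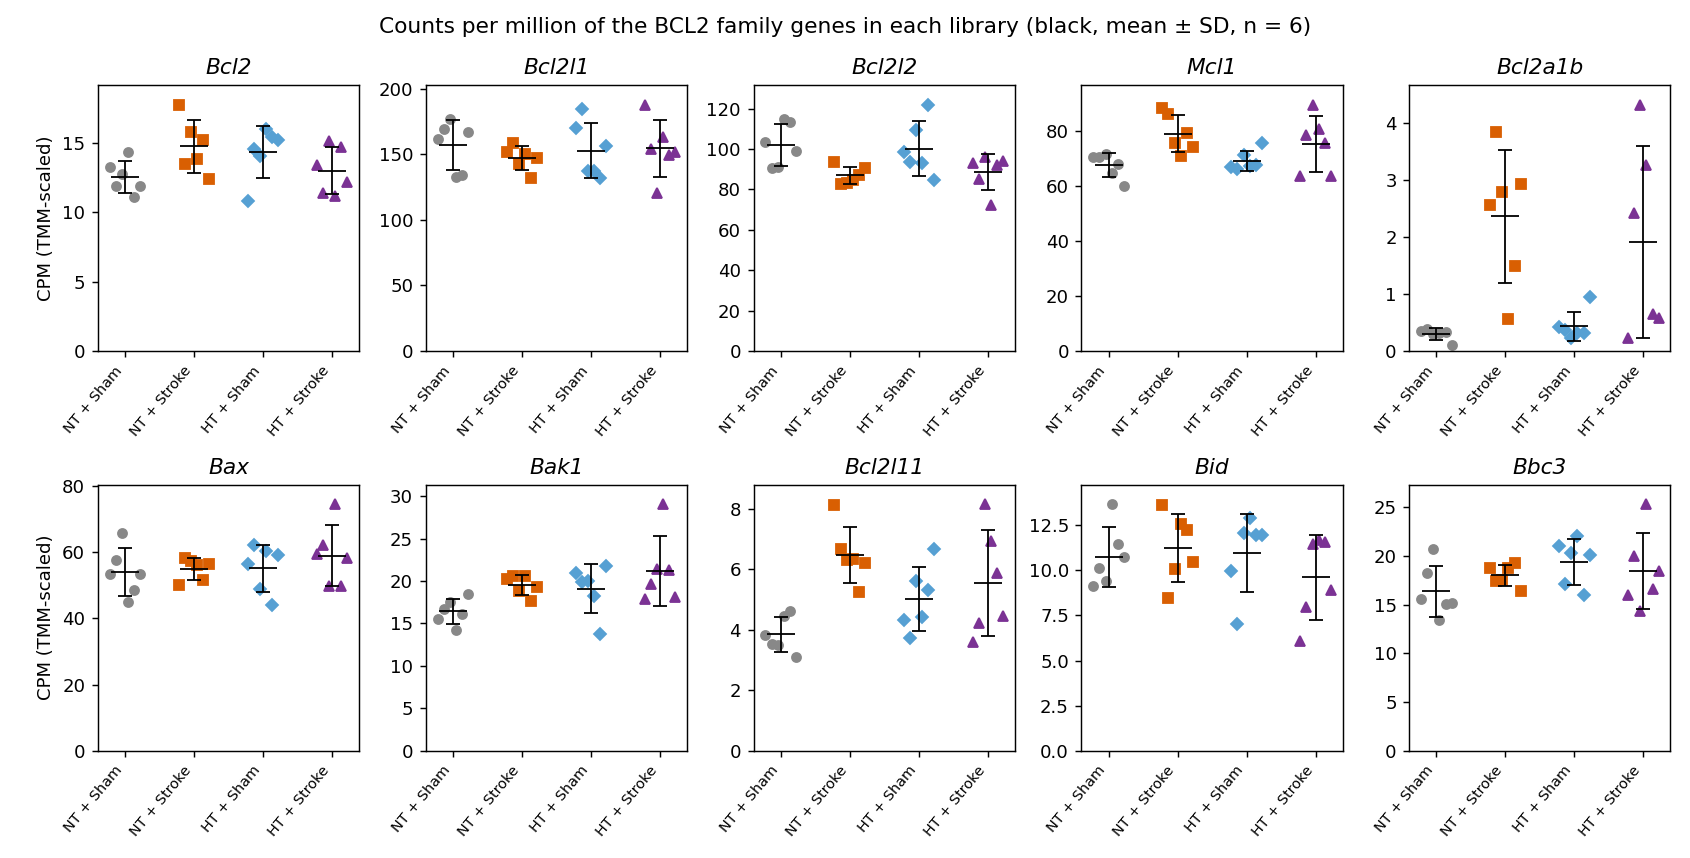
CPM of each member in each library (6 points per group, axes from 0), with the mean and SD in black. *Bcl2a1b* and *Bcl2l11* are higher in every NT + Stroke library than in any NT + Sham library, and the HT + Stroke points of these genes spread from the sham range upwards.

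*Bcl2a1b* (ENSMUSG00000089929, chr9:89199209-89207827, + strand) is 1 of several near-identical copies on mouse chromosome 9. The coding sequences of *Bcl2a1a* and *Bcl2a1d* in GENCODE M21 are of the same length as that of *Bcl2a1b* (519 bases) and identical to it at 97.9% and 98.8% of bases, and *Bcl2a1c* is shorter (387 bases, 95.9% identity over 386 aligned bases). The first 90 coding bases are shown because they hold 6 of the 12 positions at which the 3 copies of equal length differ, and these are the bases by which reads can be assigned to a copy (capitals).
Bcl2a1a: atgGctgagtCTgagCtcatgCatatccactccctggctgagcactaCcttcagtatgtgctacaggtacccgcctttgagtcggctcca
Bcl2a1b: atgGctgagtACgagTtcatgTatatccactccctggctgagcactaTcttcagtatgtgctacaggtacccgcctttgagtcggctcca
Bcl2a1d: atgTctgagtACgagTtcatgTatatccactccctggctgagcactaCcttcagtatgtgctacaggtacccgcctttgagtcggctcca
Of all 100-base stretches of the *Bcl2a1b* transcript, 31.1% occur unchanged in another copy. The split of reads between the copies is therefore uncertain. Exons of *Gm29094* on the same strand cover 49.1% of the exonic bases of *Bcl2a1b*, and no gene of that name is among the 33981 genes.

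The counts of *Bcl2a1b* were low in sham mice. It had 2 to 7 counts per library in NT + Sham (median 6.5) and 14 to 75 in NT + Stroke (median 50), or 0.107, 0.321 and 0.386 CPM (lowest, median, highest) against 0.556, 2.68 and 3.83 CPM. Every NT + Stroke library lay above every NT + Sham library, and library 4 of NT + Stroke was the lowest of its group. The log2 fold change was 2.96 (SE 0.41, adjusted *P* = 4.5e-05), which is 7.77-fold. The gene passed the filter on low counts only through its stroke libraries, and without it 4 of the other 9 members were called. Its copies also had few counts. *Bcl2a1d* had 0 to 6 counts per library in NT + Sham and 3 to 28 in NT + Stroke, and *Bcl2a1a* had 2 to 8 and 8 to 17, and neither passed the filter in this comparison.

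Myeloid markers moved with *Bcl2a1b*. The sum of 10 macrophage and monocyte markers was 18.2 to 28.7 CPM in NT + Sham and 135 to 659 CPM in NT + Stroke, and that of 10 microglial markers was 333 to 362 and 530 to 926 CPM, with no marker of either list at 0 counts throughout a group. For each 1000 CPM of macrophage markers there were 3.86 to 17.9 CPM of *Bcl2a1b* in NT + Sham (median 12.2) and 4.11 to 6.19 in NT + Stroke (median 5.44). The direction of this ratio rested on *Lyz2*, which made up 49.8% to 57.7% of the marker sum in NT + Sham and 82.8% to 95% in NT + Stroke. For each 1000 CPM of the other 9 markers there were 7.94 to 41.2 CPM of *Bcl2a1b* in NT + Sham (median 26.4) and 23.9 to 123 in NT + Stroke (median 83.2), with overlapping groups. For each 1000 CPM of microglial markers there were 0.321 to 1.09 CPM of *Bcl2a1b* in NT + Sham and 1.02 to 4.14 in NT + Stroke. The part of these cells in the result was not tested.

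**Figure D3:**
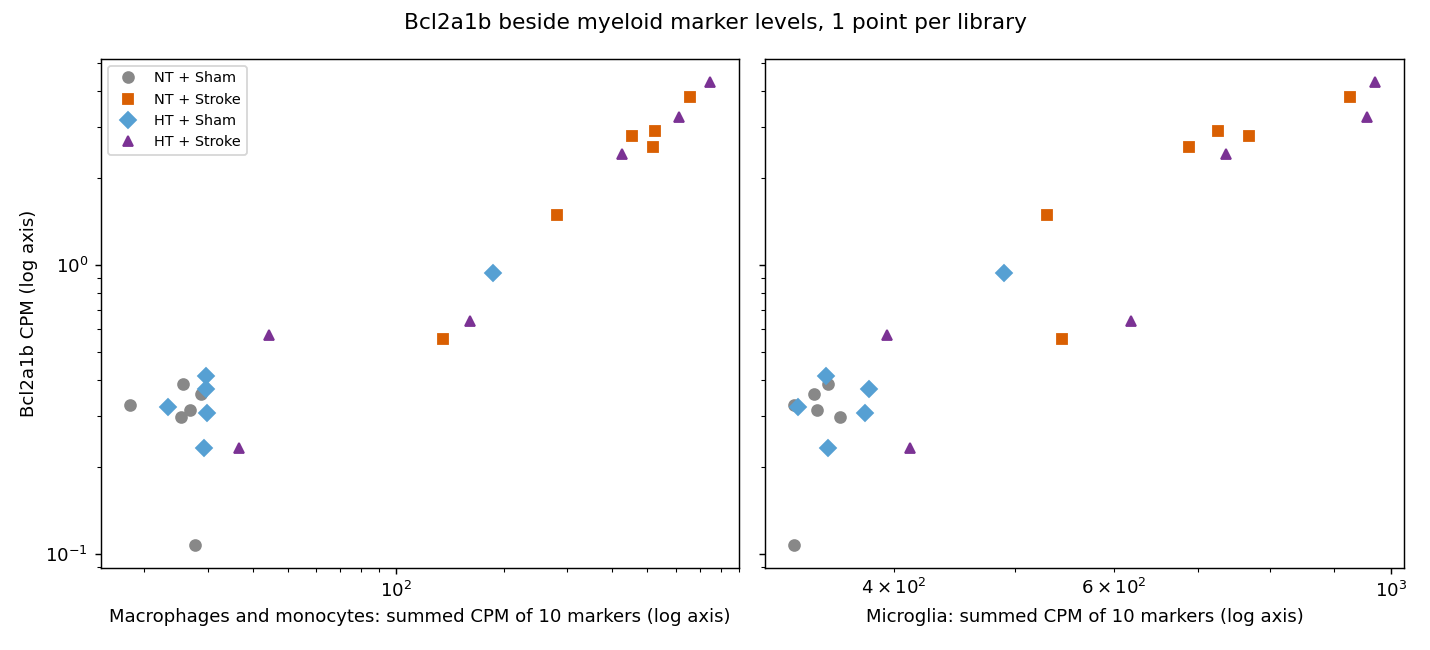
*Bcl2a1b* CPM against the summed CPM of 10 macrophage and monocyte markers (left) and 10 microglial markers (right), both axes on log scales, 1 point per library in 4 groups. Library 6 of HT + Sham, at 0.939 CPM of *Bcl2a1b* and 186 CPM of macrophage markers, lies among the stroke libraries, and library 1 of HT + Stroke, at 0.233 and 36.7 CPM, lies near the sham libraries.

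*Bcl2l11* (ENSMUSG00000027381, chr2:128126038-128162547, + strand) encodes BIM, a BH3-only protein that binds all the main guardians. It had 3.10, 3.68 and 4.62 CPM (lowest, median, highest) in NT + Sham against 5.25, 6.33 and 8.11 CPM after stroke, from 58 to 99 and 106 to 160 counts per library. All 6 NT + Stroke libraries were above all 6 NT + Sham libraries. The log2 fold change was 0.77 (SE 0.13, adjusted *P* = 0.000337), or 1.70-fold. With olfactory bulb and striatal marker scores as covariates it was 0.92 (adjusted *P* = 0.0343), and that of *Bcl2a1b* was 2.84 (adjusted *P* = 0.00761).

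*Mcl1* (ENSMUSG00000038612, chr3:95658788-95663176, + strand) encodes a short-lived guardian needed by neurons and by myeloid cells. Its levels were 59.9, 69.1 and 71.6 CPM in NT + Sham and 70.9, 77.3 and 88.2 CPM in NT + Stroke. The groups met only at their edges, since library 4 of NT + Stroke (70.9 CPM) lay below 1 NT + Sham library. The log2 fold change was 0.25 (SE 0.062, adjusted *P* = 0.00643). *Bcl2l2* (ENSMUSG00000089682, chr14:54883377-54888234, + strand), a guardian prominent in neurons, moved the other way. It had 90.5, 101 and 115 CPM in NT + Sham and 82.7, 85.9 and 93.4 CPM in NT + Stroke, with 1 NT + Stroke library inside the sham range. Its log2 fold change was −0.21 (SE 0.071, adjusted *P* = 0.0328). This call was lost without NT + Sham library 1, 4 or 5 or NT + Stroke library 2, 3 or 4 (adjusted *P* 0.0638 to 0.0988) and without TMM scaling (log2 fold change −0.15, adjusted *P* = 0.196). It was also lost with limma on log2(FPKM + 1) (−0.15, adjusted *P* = 0.14). The sum of 10 neuronal markers was 9160 to 10200 CPM in NT + Sham and 6910 to 8060 CPM in NT + Stroke, and its part in the result was not tested. Exons of *Gm20521* on the same strand cover 13.3% of the exonic bases of *Bcl2l2*, and no gene of that name is among the 33981 genes.

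*Bak1* (ENSMUSG00000057789, chr17:27019810-27029009, − strand), 1 of the pore-forming effectors, had 14.2, 16.4 and 18.5 CPM in NT + Sham and 17.6, 19.8 and 20.6 CPM in NT + Stroke. The lowest NT + Stroke library lay below the highest NT + Sham library. The log2 fold change was 0.27 (SE 0.074, adjusted *P* = 0.0116). Exons of *Ggnbp1* on the opposite strand cover 25.5% of the exonic bases of *Bak1*, and whether the counting used strand is not given in the sources used here. *Ggnbp1* itself had 5.35 to 6.80 CPM in NT + Sham and 5.54 to 9.57 CPM in NT + Stroke. *Bax* (ENSMUSG00000003873, chr7:45461697-45466898, − strand), the other effector, had 44.8 to 65.7 CPM in NT + Sham and 50.2 to 58.3 CPM in NT + Stroke. Its NT + Stroke values lay wholly inside the NT + Sham range, and the log2 fold change was 0.05 (95% interval −0.092 to 0.193, adjusted *P* = 0.671). The calls of *Mcl1*, *Bak1* and *Bcl2l2* were lost with the region scores as covariates, with log2 fold changes of 0.18, 0.19 and −0.16 and adjusted *P* of 0.52, 0.617 and 0.585. With all 4 groups in one edgeR fit the calls of *Bak1* (0.26, adjusted *P* = 0.0926) and *Bcl2l2* (−0.22, adjusted *P* = 0.0594) were lost.

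The 4 remaining members did not pass the test after stroke in NT mice. *Bcl2* (ENSMUSG00000057329, chr1:106538178-106714274, − strand), the founding guardian, had 11.2, 12.3 and 14.3 CPM in NT + Sham against 12.4, 14.6 and 17.8 CPM after stroke. The groups overlapped, and the log2 fold change was 0.25 (SE 0.096, adjusted *P* = 0.06). It passed the threshold with DESeq2 (adjusted *P* = 0.0474), without TMM scaling (0.0271), with upper-quartile scaling (0.0411), and without NT + Sham library 4 (0.0228) or NT + Stroke library 2 (0.0445) or 6 (0.0322). *Bcl2l1* (ENSMUSG00000007659, chr2:152780668-152831728, − strand) had 133 to 177 CPM and 132 to 159 CPM, with a log2 fold change of −0.07 (95% interval −0.211 to 0.0638). *Bid* (ENSMUSG00000004446, chr6:120891930-120916853, − strand), which links death receptors to mitochondria once caspase-8 has cut it, had a log2 fold change of 0.08 (95% interval −0.165 to 0.328). *Bbc3* (ENSMUSG00000002083, chr7:16308393-16318205, + strand), a p53 target, had 13.4 to 20.7 CPM and 16.4 to 19.3 CPM and a log2 fold change of 0.17 (SE 0.09, adjusted *P* = 0.197), and was called without NT + Sham library 3 (0.25, adjusted *P* = 0.038).

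Sequence upstream of *Bcl2a1b*, *Bcl2l11* and *Mcl1* is shown so that the starts of genes that rose can be compared. Each line holds the bases before the gene model within the 250 bases upstream of the RefSeq start (GRCm38.p6), 5′ to 3′, with matches on either strand to the motifs searched in capitals. The positions are chr9:89199023-89199208 (+), chr2:128125788-128126037 (+, the first of 2 starts) and chr3:95658471-95658720 (+).
Bcl2a1b: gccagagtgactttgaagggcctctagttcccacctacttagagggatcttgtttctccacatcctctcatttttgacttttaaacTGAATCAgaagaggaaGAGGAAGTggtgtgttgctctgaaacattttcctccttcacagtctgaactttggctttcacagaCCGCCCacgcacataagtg
Bcl2l11: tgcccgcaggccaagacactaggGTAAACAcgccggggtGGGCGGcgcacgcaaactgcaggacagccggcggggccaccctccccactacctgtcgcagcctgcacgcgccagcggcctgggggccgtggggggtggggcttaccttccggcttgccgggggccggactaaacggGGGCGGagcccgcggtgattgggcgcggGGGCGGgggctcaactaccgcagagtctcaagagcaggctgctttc
Mcl1: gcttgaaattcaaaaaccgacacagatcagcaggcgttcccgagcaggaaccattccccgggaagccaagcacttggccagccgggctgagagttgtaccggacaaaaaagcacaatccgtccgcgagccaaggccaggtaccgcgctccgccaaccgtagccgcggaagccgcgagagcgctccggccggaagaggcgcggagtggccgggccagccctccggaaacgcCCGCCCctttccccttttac
The motifs were AP-1 (TGANTCA), CRE (TGACGTCA), ETS (GAGGAAGT), NF-kB, FOXO (GTAAACA), Sp1 (GGGCGG), the TATA box (TATAAA) and the E-box (CACGTG), of which 6.75%, 1.55%, 2.44%, 0.356%, 3.17%, 32.7%, 12.4% and 6.02% of the 32851 windows of all genes held a match. Over the full 250 bases, the window of *Bcl2a1b* held an AP-1 match from 164 to 158 bases before the start and an ETS match from 148 to 141 bases before it, besides 1 Sp1 match. That of *Bcl2l11* held a FOXO match from 227 to 221 bases before the start and 3 Sp1 matches, that of *Mcl1* held 1 Sp1 match, and that of *Bak1*, not shown because it lies inside the gene model, held an ETS match on the opposite strand from 22 to 15 bases before the start. The share of G and C was 44.8% in *Bcl2a1b*, 72% in *Bcl2l11*, 64.4% in *Mcl1* and 58.4% in *Bak1*, against a median of 52.4% over all windows. Members that were not called after stroke in NT mice held matches too. Start 2 of *Bbc3* had a FOXO match on the opposite strand, from 167 to 161 bases before it. Windows of *Bcl2*, *Bax*, *Bid* and *Bbc3* held Sp1 matches, and start 2 of *Bcl2l11* had no FOXO match. Such matches are a description of the letters and not of bound sites.

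The next question was whether the same surgery changed the members in mice given angiotensin II. In HT + Stroke vs HT + Sham, edgeR called 0 of 10 members, where 0.645% of 16741 genes tested were called. At an unadjusted *P* under 0.05 there was 1 member, *Bcl2a1b*, where 17% of all genes passed, and DESeq2 called *Bcl2a1b* (adjusted *P* = 0.0151). Its counts were 4 to 19 per library in HT + Sham (median 6) and 4 to 95 in HT + Stroke (median 28), and its levels were 0.232, 0.347 and 0.939 CPM against 0.233, 1.53 and 4.32 CPM. *Bcl2a1b* passed the filter on low counts in this pair, too, largely through its stroke libraries. Library 1 of HT + Stroke lay at the bottom of the sham range, libraries 5 and 6 (0.642 and 0.572 CPM) lay below library 6 of HT + Sham, and libraries 2, 3 and 4 were above every sham library. The log2 fold change was 2.14 (SE 0.64, adjusted *P* = 0.117), and it was 2.36 (adjusted *P* = 0.0334) without library 1 of HT + Stroke. Macrophage markers summed to 23.2 to 186 CPM in HT + Sham and 36.7 to 749 CPM in HT + Stroke, and the same 3 low HT + Stroke libraries had the lowest sums.

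*Bcl2l11* had 3.73, 4.86 and 6.67 CPM in HT + Sham and 3.61, 5.16 and 8.14 CPM in HT + Stroke. Libraries 3 and 4 of HT + Stroke lay above the sham range, library 1 lay below it and the others lay within it. The log2 fold change was 0.17 (95% interval −0.238 to 0.574, adjusted *P* = 0.738), and the 0.77 measured in NT mice lies outside this interval. *Mcl1* had 66.0 to 75.6 CPM in HT + Sham and 63.4 to 89.5 CPM in HT + Stroke (log2 fold change 0.14, 95% interval −0.0317 to 0.318). *Bcl2l2* had 84.5 to 122 CPM and 72.1 to 96.2 CPM (−0.16, 95% interval −0.331 to 0.0207), and *Bak1* had 13.7 to 21.8 CPM and 17.8 to 29.0 CPM (0.18, 95% interval −0.0917 to 0.442). The intervals of *Mcl1*, *Bcl2l2* and *Bak1* contain the log2 fold changes measured in NT mice. For *Bcl2* the log2 fold change was −0.12 (adjusted *P* = 0.619), and for *Bid* it was −0.17 (adjusted *P* = 0.688).

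**Figure D4:**
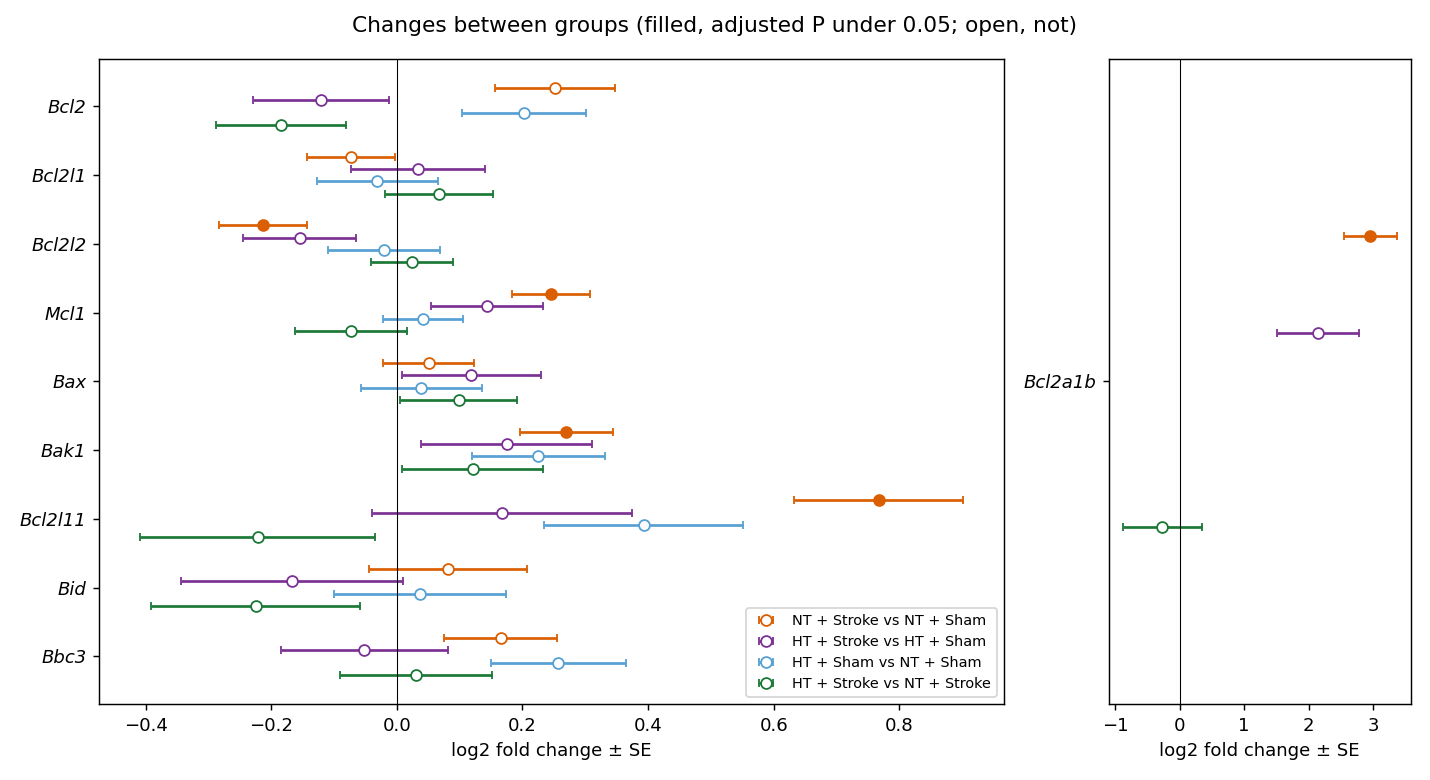
Log2 fold change with its SE for each member in 4 comparisons (left, 9 members; right, *Bcl2a1b* on a wider axis), filled where the adjusted *P* was under 0.05. Filled points occur only in NT + Stroke vs NT + Sham, at *Bcl2l2*, *Mcl1*, *Bak1*, *Bcl2l11* and *Bcl2a1b*, and *Bcl2a1b* was not tested in HT + Sham vs NT + Sham.

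Since an interval is no test of a difference, the stroke effects were compared through the interaction of angiotensin II and stroke in a fit of all 24 libraries. No member was called with edgeR or DESeq2, where edgeR called 0% of 17608 genes and DESeq2 called 22 genes. At an unadjusted *P* under 0.05 there were 2 of 10 members, where 10.4% of 17608 genes passed. They were *Bcl2*, with an interaction of −0.38 on the log2 scale (SE 0.14, adjusted *P* = 0.375), and *Bcl2l11*, with −0.61 (SE 0.25, adjusted *P* = 0.428). With the region scores as covariates these were −0.32 and −0.20, and the summed olfactory bulb markers were 163 to 546 CPM in NT + Stroke and 75.6 to 407 CPM in HT + Stroke. The interaction was −0.82 for *Bcl2a1b* (95% interval −2.44 to 0.793) and −0.11 for *Mcl1* (95% interval −0.322 to 0.103). The stroke effect was thus not shown to differ between NT and HT mice for any member.

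Averaged over NT and HT mice, the stroke main effect called the same 5 members in the same directions, where 25.8% of all genes were called. This contrast includes the NT libraries described above and is not independent of them. *Bcl2a1b* had a log2 fold change of 2.54 (SE 0.40, adjusted *P* = 6.71e-05) and was above the sham median in 11 of 12 stroke libraries. It had 2 to 7 counts per library in NT + Sham and 4 to 19 in HT + Sham. It passed the filter here largely through its stroke libraries, so its rise was partly set by the filter. *Bcl2l11* had 0.46 (SE 0.13, adjusted *P* = 0.0077) and *Mcl1* had 0.19 (SE 0.054, adjusted *P* = 0.0115), each above the sham median in 10 of 12. *Bcl2l2* had −0.19 (SE 0.059, adjusted *P* = 0.0151) and was below the sham median in 12 of 12, and this call was lost without TMM scaling (−0.16, adjusted *P* = 0.0978) and with limma on log2(FPKM + 1) (−0.14, adjusted *P* = 0.0884). *Bak1* had 0.22 (SE 0.079, adjusted *P* = 0.044), and this call was lost without any 1 of 14 libraries, with adjusted *P* up to 0.0938 without library 4 of HT + Stroke. With olfactory bulb and striatal scores as covariates all 5 calls were lost, at log2 fold changes of 1.95 (*Bcl2a1b*, adjusted *P* = 0.115), 0.49 (*Bcl2l11*, 0.0932), 0.12 (*Mcl1*, 0.424), −0.13 (*Bcl2l2*, 0.461) and 0.11 (*Bak1*, 0.628). Under that fit 633 of all genes were called, against 4541 without the scores.

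Angiotensin II alone gave no called member. In HT + Sham vs NT + Sham edgeR called 0 of 9 members tested and 0% of 16581 genes, and DESeq2 called 0 members. At an unadjusted *P* under 0.05 there were 3 members, where 8.03% of genes passed. *Bcl2l11* had a log2 fold change of 0.39 (95% interval 0.0818 to 0.704, adjusted *P* = 0.536), *Bbc3* of 0.26 (95% interval 0.0481 to 0.466, adjusted *P* = 0.556) and *Bak1* of 0.23 (95% interval 0.0175 to 0.433, adjusted *P* = 0.618). For *Bcl2l11* and *Bbc3* all 6 HT + Sham libraries lay above the NT + Sham median, and the groups overlapped. With the region scores as covariates *Bcl2l11* had 0.33, *Bbc3* had 0.03 and *Bak1* turned to −0.12. The summed olfactory bulb markers were 111 to 221 CPM in NT + Sham and 171 to 634 CPM in HT + Sham, and their part in these values was not tested. *Bcl2a1b* had too few counts to be tested, at 2 to 7 counts per library in NT + Sham and 4 to 19 in HT + Sham, where library 6 held the 19. When every gene with 1 count or more was fitted, its log2 fold change was 0.55 (SE 0.46, adjusted *P* = 0.77).

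Among mice with stroke, angiotensin II gave no call either. In HT + Stroke vs NT + Stroke, edgeR called 0 of 10 members and 0% of 17008 genes, DESeq2 called 0 members, and 0 members had an unadjusted *P* under 0.05, where 7.23% of genes did. The log2 fold changes ran from −0.27 (*Bcl2a1b*, 95% interval −1.48 to 0.935) and −0.23 (*Bid*, 95% interval −0.55 to 0.1) to 0.12 (*Bak1*, 95% interval −0.0984 to 0.34). With the region scores as covariates *Bcl2a1b* and *Bid* turned to 0.03 and 0.07, and without library 4 of HT + Stroke *Bak1* had 0.0013. In the angiotensin II main effect edgeR called 0 of 10 members and 0% of 17608 genes. Of the members, 1 had an unadjusted *P* under 0.05, where 4.41% of genes did. It was *Bak1*, with 0.18 (SE 0.079, adjusted *P* = 0.9).

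Against untreated sham mice, the combination of angiotensin II and stroke gave 1 call among 9 members tested, where 14.7% of 16749 genes were called. *Bak1* rose from 14.2, 16.4 and 18.5 CPM in NT + Sham to 17.8, 20.5 and 29.0 CPM in HT + Stroke. This was a log2 fold change of 0.40 (SE 0.12, adjusted *P* = 0.0325). All 6 HT + Stroke libraries were above the NT + Sham median, and the groups overlapped. Without library 4 of HT + Stroke, which had the 29.0 CPM, the log2 fold change was 0.27 (adjusted *P* = 0.0626), and the call was also lost without NT + Sham library 1, 2, 4 or 5 or HT + Stroke library 2 or 5 (adjusted *P* 0.0526 to 0.0706). With the region scores as covariates it was 0.13 (adjusted *P* = 0.693). *Bcl2l11* had a log2 fold change of 0.56 (SE 0.20, adjusted *P* = 0.0688), and was called without library 1 of HT + Stroke (0.66, adjusted *P* = 0.0225) and by DESeq2 (adjusted *P* = 0.0429). *Bcl2a1b* did not pass the filter in this pair of groups, and when every gene with 1 count or more was fitted, its log2 fold change was 2.67 (SE 0.68, adjusted *P* = 0.0399).

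The balance between members within a library was described by ratios of FPKM, without a test. The log2 ratio of *Bax* to *Bcl2* was 4.64 ± 0.25 in NT + Sham, 4.44 ± 0.25 in NT + Stroke, 4.48 ± 0.29 in HT + Sham and 4.72 ± 0.39 in HT + Stroke (SD, n = 6), and the groups overlapped. The log2 ratio of *Bax* to *Bcl2l2* was 0.58 ± 0.34, 0.84 ± 0.15, 0.64 ± 0.38 and 0.91 ± 0.36 in the same order, with overlapping groups. The log2 ratio of *Bcl2* to *Bcl2l1* lay between −4.98 and −3.99 in the 24 libraries.

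Genes that varied with a member among mice of the same group were found by Pearson's r of log2(CPM + 1) after each group's mean was subtracted, over 24 libraries and 15491 other genes. These libraries share their sections and differ in region markers and depth, so the values are a description. Macrophage marker sums also ranged from 36.7 to 749 CPM within HT + Stroke and from 23.2 to 186 CPM within HT + Sham. The part of that spread in the values of r was not tested. *Bcl2a1b* varied most closely with *Mmp12* (r = 0.968), *Itgb2* (0.966), *Cpz* (0.962), *Ccl6* (0.958) and *Atp6v0d2* (0.956), of which *Mmp12*, *Itgb2* and *Ccl6* are known from myeloid cells. *Mcl1* varied with *Ppic* (0.914), *P2ry6* (0.901), *Ctsc* (0.892), *Axl* (0.877) and *Plin2* (0.867). *P2ry6*, *Ctsc* and *Axl* encode a nucleotide receptor, a lysosomal protease and a receptor of phagocytes that microglia express. *Bcl2l11* varied with *Notch2* (0.887), *Fam167a* (0.853), *Pyroxd2* (0.853), *Lamp2* (0.849) and *Ddr2* (0.836), and *Bak1* with *Ddah2* (0.852), *Renbp* (0.849), *Sdc3* (0.842), *Cuedc1* (0.842) and *Edem2* (0.832).

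The abundant members varied with other sets. *Bax* varied with *Fau* (r = 0.972), *Rplp2* (0.959), *Rps9* (0.953) and *Rps19* (0.952), which encode ribosomal proteins or a ribosomal fusion protein. *Bcl2l1* varied with *Prr5* (0.934), *Evi5l* (0.929), *Pitpnm2* (0.926), *Ppp1r37* (0.926) and *Mib2* (0.92), and *Bcl2l2* with *Arnt2* (0.939), *Tbc1d24* (0.935), *Vps33a* (0.922), *Tub* (0.917) and *Efr3b* (0.91). *Bid* varied with *Txnrd3* (0.859), *Zadh2* (0.854), *Dcx* (0.847), *Wls* (0.844) and *Epb41l4a* (0.843), where *Dcx* marks immature neurons and olfactory bulb markers ranged from 75.6 to 634 CPM between sections. For *Bcl2* the highest values were those of *Arl14ep* (0.802), *Sparcl1* (0.798), *Eif4g2* (0.79), *Shisa2* (0.782) and *Sec62* (0.78), and for *Bbc3* those of *Frg1* (0.806), *Mafa* (0.792), *Fam96a* (0.789), *Atp6v1g1* (0.788) and *Hes5* (0.788).

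Other genes of the family were examined by name. Of 17 listed, 16 were in the tables and 13 could be tested in the stroke main effect, of which 4 rose and 1 fell, where 25.8% of all genes were called. *Bmf*, a BH3-only gene, had 3.20, 3.29 and 4.44 CPM in NT + Sham and 6.44, 7.53 and 9.51 CPM in NT + Stroke, without overlap. It had 3.42, 4.12 and 5.98 CPM in HT + Sham and 2.91, 6.26 and 9.59 CPM in HT + Stroke, with overlap. Its log2 fold change was 1.15 in NT + Stroke vs NT + Sham (SE 0.13, adjusted *P* = 4.67e-06), 0.63 in HT + Stroke vs HT + Sham (SE 0.26, adjusted *P* = 0.227) and 0.88 in the stroke main effect (SE 0.15, adjusted *P* = 9.19e-05). *Bcl2a1d* and *Bcl2a1a*, the copies of *Bcl2a1b*, had main effects of 3.24 (SE 0.63, adjusted *P* = 0.00044) and 1.49 (SE 0.35, adjusted *P* = 0.00235), with 0 to 6 and 0 to 9 counts per sham library. Both passed the filter here largely through their stroke libraries, so their rise was partly set by the filter. Since the split of reads between the copies is uncertain, they do not stand apart from *Bcl2a1b*. *Bcl2l12* had a main effect of 0.47 (SE 0.13, adjusted *P* = 0.00939).

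*Bnip3*, a mitophagy receptor of the family, fell by 0.22 on the log2 scale in the stroke main effect (SE 0.074, adjusted *P* = 0.0299). In NT + Stroke vs NT + Sham 11 of the listed genes were tested, 2 rose (*Bmf* and *Bcl2l12*) and 3 fell, where 25.9% of all genes were called. The latter were *Bok* (−0.35, SE 0.075, adjusted *P* = 0.00202), an effector that guardians do not restrain, *Hrk* (−0.22, SE 0.056, adjusted *P* = 0.00673), a BH3-only gene of neurons, and *Bnip3* (−0.23, SE 0.067, adjusted *P* = 0.0168). In HT + Stroke vs HT + Sham *Bok* had 0.01 and *Hrk* 0.14, and their interactions were 0.35 (adjusted *P* = 0.454) and 0.36 (adjusted *P* = 0.322). The main effects of *Bcl2l13* (−0.17), *Bok* (−0.17), *Bnip3l* (−0.05), *Bnip1* (−0.05), *Pmaip1* (NOXA, −0.13), *Bcl2l15* (−0.25), *Hrk* (−0.05) and *Bad* (0.03) did not pass the test. *Bcl2l10*, *Bik* and *Bcl2l14* had too few counts, with at most 6, 7 and 15 in any library, and *Bcl2a1c* was not analysed here. *Bcl2l14* had 0 to 1 counts per library in NT + Stroke and 0 to 15 in HT + Stroke, and *Bcl2l15* had 8 to 19 and 0 to 9. In HT + Stroke vs NT + Stroke 0 of the 12 listed genes tested were called, where 0% of all genes were called. Exons of *Bcl2l13* on the opposite strand cover 17.7% of the exonic bases of *Bid*.

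**Figure D5:**
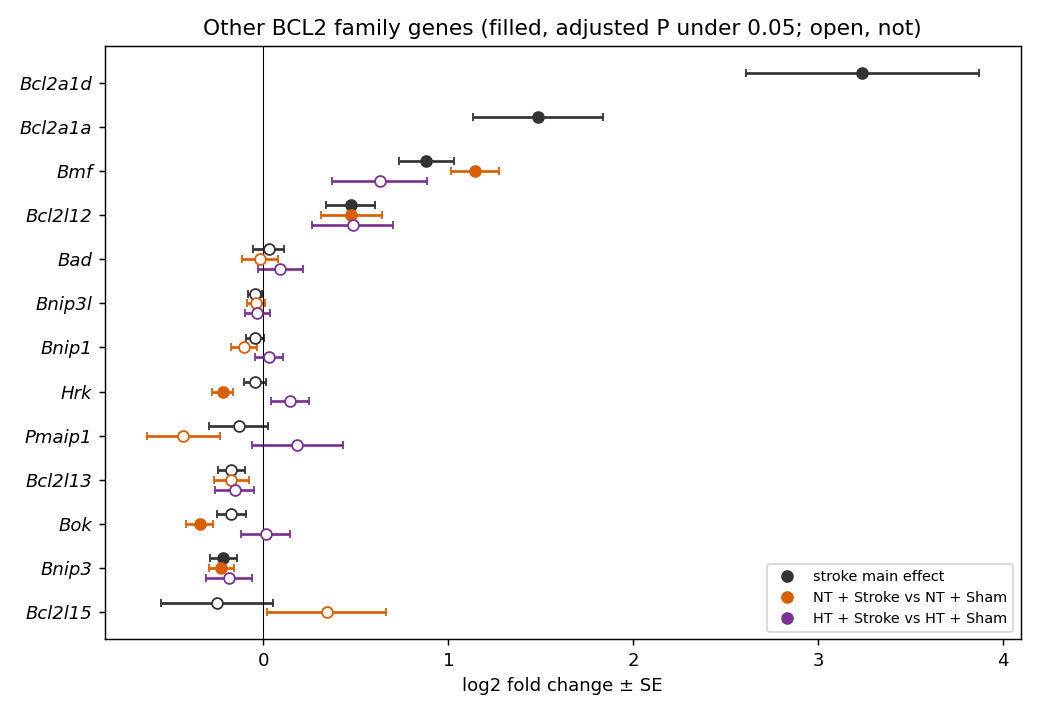
Log2 fold change with its SE for the 13 other BCL2 family genes that could be tested, in the stroke main effect (black), NT + Stroke vs NT + Sham (orange) and HT + Stroke vs HT + Sham (purple), filled where the adjusted *P* was under 0.05. *Bcl2a1d*, *Bcl2a1a*, *Bmf* and *Bcl2l12* are filled to the right of 0 and *Bnip3* to the left in the main effect.

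The genes up and downstream of the family were read from 4 further lists, beside the 25.9% (NT + Stroke vs NT + Sham) and 25.8% (stroke main effect) of all genes called. Among 19 apoptosome, caspase and IAP genes, 4 rose and 0 fell in NT + Stroke vs NT + Sham, and 3 rose in the stroke main effect, with a median log2 fold change of 0.07 over the list, so that the share called was below that of all genes. The 3 were *Birc3* (0.83, adjusted *P* = 0.000623), an inhibitor of apoptosis, *Casp8* (0.84, adjusted *P* = 0.000874), the initiator caspase of death receptors, and *Cflar* (0.23, adjusted *P* = 0.0122), its decoy. Among 8 tested death receptor genes, 3 rose in either contrast, namely *Tnfrsf1a* (main effect 0.93, adjusted *P* = 0.000115), *Fadd* (0.56, adjusted *P* = 0.00201) and *Ripk1* (0.39, adjusted *P* = 0.04). Of 13 tested p53 pathway genes, 4 rose and 2 fell in NT + Stroke vs NT + Sham. In the main effect *Trp53* (0.24, adjusted *P* = 0.0027) and *Trp53inp1* (0.24, adjusted *P* = 0.0383) rose, and *Plk2* (−0.21, adjusted *P* = 0.0194) and *Zmat3* (−0.13, adjusted *P* = 0.0238) fell.

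All 10 lytic cell death genes rose in the stroke main effect, with a median log2 fold change of 0.93 over the list and −0.01 over all genes, and 7 of 8 tested rose in NT + Stroke vs NT + Sham. *Mlkl* had 0 to 5 counts per library in NT + Sham and 1 to 10 in HT + Sham, and *Ripk3* had 2 to 9 in each. Both genes passed the filter largely through stroke libraries. *Casp4* had 7 to 13 counts per library in NT + Sham and 4 to 24 in HT + Sham. In HT + Sham vs NT + Sham, which holds no stroke library, 7 of the 10 genes were tested. A rise of all 10 was thus partly set by the filter. The list was also chosen with earlier results of these data known. The 4 lytic genes with the smallest *P* were *Casp4* (1.43, adjusted *P* = 5.26e-05) and *Gsdmd* (0.96, adjusted *P* = 5.45e-05), an inflammatory caspase and the pore protein it cuts, *Zbp1* (1.78, adjusted *P* = 0.000373), a nucleic acid sensor of necroptosis, and *Pycard* (0.81, adjusted *P* = 0.000532), the inflammasome adaptor. In HT + Stroke vs HT + Sham 0 genes of any of these lists were called, where 0.645% of all genes were called. The median log2 fold changes of the lists were 0.80 for the 8 lytic genes tested, 0.35 for death receptor genes, 0.05 for apoptosome, caspase and IAP genes and −0.04 for p53 pathway genes. In the interaction 0 genes of the lists were called by edgeR, where 0% of all genes were called. Several of the lytic genes are expressed by microglia and macrophages, whose markers rose in the same libraries, and the part of these cells was not tested.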

How the data were processed

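Each deposited table listed genes with read counts and FPKM for the libraries of 2 groups. The counts as deposited were whole numbers of reads per gene, not normalized. The submitters' processing notes name featureCounts 1.5.0-p3 and DESeq2 1.20.0, and the aligner and genome build are not given in the sources used here. The FPKM values as deposited were computed by the authors from counts, gene length and library size. The columns of the authors' own log2 fold changes and *P*-values, as deposited, and 56 columns of normalized values were not used. The 4 tables were joined by gene identifier to 33981 genes and 24 libraries, and a library listed in more than 1 table held the same values in all 48 such comparisons. For 3766 genes missing from a table, libraries covered by no other table were given 0.

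Counts were tested with edgeR 4.0.16 in R 4.3.3 (filterByExpr with a minimum count of 10 and total of 15, TMM, robust quasi-likelihood fit, two-sided), on the 2 groups of each pair, or on all 24 libraries for the stroke main effect, the angiotensin II main effect and the interaction. The SE is the log2 fold change divided by the square root of the F statistic, and intervals are normal intervals from that SE. Such intervals are narrower than the F test implies, so one can leave out 0 where the test does not pass. For *Bcl2* in HT + Sham vs NT + Sham the interval was 0.00818 to 0.396, at an unadjusted *P* of 0.0558 in edgeR's test. The fits were tested on simulated data. The precision of low genes is limited by counting, and counts are of reads and not of molecules.

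Named genes were all 10 members in every comparison, every other BCL2 family gene of the list, the 4 called genes with the smallest *P* in the stroke main effect from each other pathway list, and the 5 genes most like each member, of which 1 is not reported here. The members and the gene lists were chosen with earlier results of these data known. The alternatives were DESeq2 1.42.0, limma 3.58.1 (log2(FPKM + 1) or log2(FPKM + 0.1)), upper-quartile or no scaling, filters of 1 count in total or of 10 counts per library, all 4 groups in one fit, a block by library number, region scores as covariates, and each library left out in turn. Promoters came from RefSeq (GRCm38.p6) and gene models and transcripts from GENCODE M21.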

Additional observations from a re-analysis of the deposited data

Results flagged for a closer look

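Each member was examined in each group of 6 libraries for a lowest or highest value far from the others by Dixon's ratio, in 40 groups of values, of which chance alone flags about 1 in 20. There were 3. *Bak1* in library 4 of HT + Stroke was 29.0 CPM, where the next highest library had 21.4 CPM. *Bcl2a1b* in library 6 of NT + Sham was 0.107 CPM (2 counts), where the next lowest library had 0.297 CPM. *Bcl2a1b* in library 6 of HT + Sham was 0.939 CPM (19 counts), where the next highest library had 0.414 CPM, and that library also had the highest macrophage marker sum of its group (186 CPM).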

How the results depend on the processing

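The number of members called in NT + Stroke vs NT + Sham was 5, and it was 3 with all 4 groups in one fit, 2 with the olfactory bulb and striatal scores as covariates, and 4 to 6 without any 1 library. For HT + Stroke vs HT + Sham it was 0, and 1 with DESeq2 or with all 4 groups in one fit, and 0 to 1 without any 1 library (1 without library 1 of HT + Stroke). For HT + Stroke vs NT + Sham it was 1, and 2 with DESeq2 or with all genes of at least 1 count, 3 with all 4 groups in one fit, 0 with the block by library number or the covariates, and 0 to 3 without any 1 library. In the stroke main effect it was 5, and 0 with the covariates, 4 without scaling, with either limma fit, with the block and with either other filter on low counts, and 4 to 5 without any 1 library. In these cases the cause was not tested. The other comparisons gave 0 under every alternative run. Over all member log2 fold changes and alternatives, 1980 kept their direction of call or absence of a call, 47 lost a call, 13 gained one and 0 called values changed sign. No scaling alternative moved the median log2 fold change of all genes by more than 0.1.

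The number of all genes called in HT + Stroke vs HT + Sham was 108 and moved from 0 with the covariates to 1125 with all 4 groups in one fit (891 with DESeq2), and from 9 to 533 without any 1 library. In NT + Stroke vs NT + Sham it was 4365, and 748 with the covariates, and in HT + Stroke vs NT + Sham 2470, and 770 with the block and 0 with the covariates. DESeq2 called 1 gene in HT + Sham vs NT + Sham and 22 in the interaction, where edgeR called 0.

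The labels do not say that a library number marks a shared batch, litter or day. Same-numbered libraries of the groups compared correlated by −0.519 to 0.408 in their deviations from the group means, with 2 or 3 of 6 pairs above 0.1 in each comparison and at most 1 library closest to its own number, so the numbers were not treated as pairs. With the replicate block 5 members were called in NT + Stroke vs NT + Sham and 4 in the stroke main effect. At 2 to 7 counts per NT + Sham library, the depth limits *Bcl2a1b* most. The log2 ratio of the NT + Stroke to the NT + Sham median of *Bcl2a1b* per macrophage marker was −1.17, and it turned to 1.66 without *Lyz2* in the marker sum, an alternative chosen after seeing the data.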

Other observations

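Library 4 of HT + Stroke, chosen after its values were seen, held the highest level of the 24 libraries for *Bax* (74.5 CPM), *Bak1* (29.0 CPM) and *Bbc3* (25.3 CPM) and the lowest for *Bcl2l2* (72.1 CPM). Its *Bcl2* (11.2 CPM) was the lowest of HT + Stroke, and its *Bcl2a1b* (3.27 CPM) and *Bcl2l11* (6.95 CPM) lay within the range of the other HT + Stroke libraries.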
